A study of Mus musculus domesticus and Mus musculus molossinus with 8 samples.

Results

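The liver of a C57BL/6 (B6) mouse injected with MegaFasL was compared with the liver of an untreated B6 mouse, across all genes whose mean level was high enough to compare. The comparison used 2 of the 8 libraries of the study, 1 per group. Genes were joined by name, the libraries were centred by the median ratio over 10694 genes averaging 1 FPKM or more, and the 7025 of 23284 genes averaging 5 FPKM or more in these libraries were compared. FPKM is the number of sequenced fragments of a gene divided by its transcript length and by the mapped fragments of the library. A difference below is log2(FPKM + 1) in the MegaFasL liver minus the same value in the untreated liver, after centring. A gene was called higher or lower when the difference was at least 1, which is a 2-fold change of FPKM + 1.

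The study sequenced polyadenylated RNA of liver and thymus from 4 mice of the C57BL/6 and MSM/Ms (MSM) strains, 1 mouse per strain and treatment. The injected B6 mouse was 8 weeks old and had received 1.5 µg of MegaFasL into the peritoneum. The untreated B6 mouse was also 8 weeks old and had received no injection, so the agent cannot be told apart from the act of injecting. Each liver came from the same animal as the thymus library of its group. The sources used here do not give the time between injection and collection, the time of day or the sex of the mice. With 1 mouse and 1 library per group there is no replicate check, no test between groups was possible, and the treatment cannot be told apart from any other difference between these individual animals.

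MegaFasL is a multimeric form of Fas ligand. Fas is a death receptor of the tumour necrosis factor receptor family, and when ligand gathers its trimers, the adaptor FADD binds and recruits procaspase-8, which becomes active. In hepatocytes, the main cells of the liver and among those most easily killed through Fas, active caspase-8 cuts the BCL-2 family protein BID, which opens the outer mitochondrial membrane and lets out cytochrome c, and executioner caspases follow. These steps are made by proteins already present in the cell, and the RNA levels below do not measure them.

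The liver label held in both libraries. Albumin took 8.70% of the FPKM sum in the MegaFasL liver and 9.58% in the untreated liver. All 18 hepatocyte markers were compared, with a median difference of 0.23, and Ass1, a urea cycle enzyme, was the marker called. Depth was low. Read back from the steps of the low values, 1 FPKM on 1 kb of transcript stood for an estimated 1.80 fragments in the MegaFasL liver and 1.63 in the untreated liver, so a gene at 5 FPKM on a 2 kb transcript rested on about 16.2 fragments in the MegaFasL liver and 14.7 in the untreated liver. The intervals given with folds below are exact 95% intervals from these estimated fragments and cover counting error only, not the difference between animals. The 2 libraries came from tables normalized separately, and the centring ratio between them was 1.03.

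Of the 7025 genes compared, 395 (5.62%) were called higher and 317 (4.51%) lower in the MegaFasL liver, 712 (10.1%) in all. The counts of calls in each gene list below stand against these shares. The middle of the distribution was narrow: 4610 genes (65.6%) lay within 0.5 log2 units, and the 10th and 90th percentiles were -0.68 and 0.75. A difference of at least 4-fold was reached by 63 genes higher and 52 genes lower. At least 50 FPKM in the untreated liver was reached by 36 of the genes called higher, and at least 50 FPKM in the MegaFasL liver by 13 of the genes called lower. Of the calls, 18 higher genes were listed at 0 in the untreated liver and 17 lower genes at 0 in the MegaFasL liver.

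**Figure D1:**
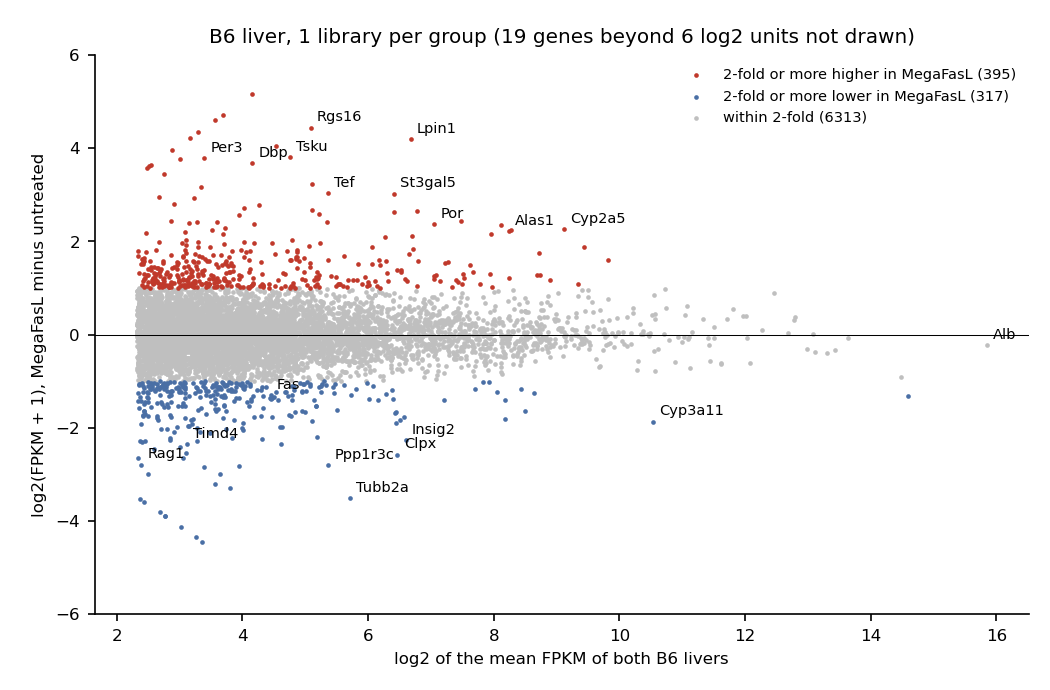
Each point is a gene, with the log2 of its mean FPKM in both B6 livers on the x axis and the log2(FPKM + 1) difference, MegaFasL minus untreated, on the y axis, 1 library per group. The 395 genes called higher are red and the 317 called lower blue; Lpin1 and Rgs16 stand at 4.21 and 4.44, Tubb2a at -3.50, and Alb, the most abundant gene, near 0 at -0.22; 19 small RNA genes beyond 6 log2 units are not drawn.

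Among named genes of at least 0.5 FPKM in both livers, the highest in the MegaFasL liver relative to the untreated liver was Rgs16, a regulator of G protein signalling on chromosome 1 from 153740349 to 153745468 (mm10, plus strand). It had 65.9 FPKM in the MegaFasL liver and 2.00 FPKM in the untreated liver, a 32.0-fold difference (95% counting interval 15.2 to 80.0). Lpin1, a phosphatidate phosphatase that also acts as a co-regulator of fat metabolism genes, lies on chromosome 12 from 16535669 to 16610966 (minus strand). It had 195 FPKM in the MegaFasL liver and 9.34 FPKM in the untreated liver, a 20.3-fold difference (15.8 to 27.01), and with an estimated 1374 and 59 fragments it was the best measured of the leading genes. Tsku, which encodes the secreted proteoglycan tsukushi, had 51.5 FPKM in the MegaFasL liver and 2.64 FPKM in the untreated liver (18.9-fold, 10.1 to 39.9). Mfsd2a, a transporter of lysophosphatidylcholine, had 63.0 FPKM in the MegaFasL liver and 5.62 FPKM in the untreated liver (10.9-fold, 5.82 to 23.6). St3gal5, the synthase of the ganglioside GM3, had 153 FPKM in the MegaFasL liver and 17.4 FPKM in the untreated liver (8.55-fold, 5.99 to 12.3). Bri3 was higher as well, by 2.79. Of the 15 largest differences upward, the others were 6 genes of the clock list, Mt2, Cyp3a16 and Cux2, which are described with their groups.

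Downward, the largest difference by the same rule was that of Tubb2a, a beta-tubulin on chromosome 13 from 34074274 to 34078007 (minus strand). It had 7.92 FPKM in the MegaFasL liver and 97.2 FPKM in the untreated liver, a fold of 0.0790 (0.0472 to 0.125). Ppp1r3c, which targets protein phosphatase 1 to glycogen, had 9.88 FPKM in the MegaFasL liver and 72.8 FPKM in the untreated liver (fold 0.132, 0.0941 to 0.181). Clpx, the unfoldase subunit of a protease of the mitochondrial matrix, had 25.4 FPKM in the MegaFasL liver and 152 FPKM in the untreated liver (fold 0.162, 0.132 to 0.197). These 3 genes had at least 20 fragments in both livers. Most others near the bottom did not: Arhgdib, an inhibitor of small GTPases in blood cells, had 1.86 FPKM in the MegaFasL liver and 19.0 FPKM in the untreated liver on about 2 and 19 fragments. Lgals1, which encodes galectin-1, had 1.86 FPKM in the MegaFasL liver and 15.3 FPKM in the untreated liver, and Serpinb1a, an inhibitor of neutrophil proteases, had 1.94 FPKM in the MegaFasL liver and 14.2 FPKM in the untreated liver. Spata22, Cd24a and Med11 rested on about 1 fragment each in the MegaFasL liver.

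The receptor itself was lower in the liver that had received its ligand. Fas, on chromosome 19 from 34290666 to 34327772 (plus strand), had 12.6 FPKM in the MegaFasL liver and 31.2 FPKM in the untreated liver, a difference of -1.29 and a fold of 0.390 (0.237 to 0.621). Of the 30 genes of the Fas apoptosis list, 21 were compared; 0 were called higher and 2 lower, with a median of -0.15, against 5.62% and 4.51% of all compared genes and an overall median of 0.00. The second was Endog, a mitochondrial nuclease, at 5.36 FPKM in the MegaFasL liver and 14.7 FPKM in the untreated liver on about 8 and 21 fragments. The ligand gene Fasl was at the limit of detection, at 0.659 FPKM in the MegaFasL liver and listed at 0 in the untreated liver.

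The signalling complex at the receptor showed small differences. Fadd, the adaptor, had 2.08 FPKM in the MegaFasL liver and 3.19 FPKM in the untreated liver, under the level for comparison. Casp8, the initiator caspase, had 12.6 FPKM in the MegaFasL liver and 13.8 FPKM in the untreated liver, a difference of -0.17. Cflar, which encodes the caspase-8 inhibitor FLIP, had 28.6 FPKM in the MegaFasL liver and 31.0 FPKM in the untreated liver, and Ripk1, a kinase of the same complexes, 12.4 FPKM in the MegaFasL liver and 12.3 FPKM in the untreated liver. For each of these 3 compared genes the counting interval of the fold included 1.

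Downstream, Casp6, an executioner caspase, was at -0.83 and not called, with 5.77 FPKM in the MegaFasL liver and 10.7 FPKM in the untreated liver. Of the apoptosome, Cycs, which encodes cytochrome c, had a difference of -0.25, while Apaf1 and Casp9 had means under 5 FPKM. The inhibitors of apoptosis differed little: Xiap had 35.4 FPKM in the MegaFasL liver and 28.2 FPKM in the untreated liver (0.27), and Birc2 and Birc3 had differences of -0.37 and -0.07.

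Of the 19 BCL-2 family genes, 9 were compared; 0 were called higher and 1 lower, Bad, on about 5 and 10 fragments. Bid, the substrate of caspase-8, had 9.21 FPKM in the MegaFasL liver and 7.57 FPKM in the untreated liver (0.21), and its effector partner Bax had 6.67 FPKM in the MegaFasL liver and 12.8 FPKM in the untreated liver (-0.89). Among the protective members, Mcl1 had 36.7 FPKM in the MegaFasL liver and 41.1 FPKM in the untreated liver, and Bcl2l1, which encodes BCL-XL, had 16.9 FPKM in the MegaFasL liver and 14.6 FPKM in the untreated liver. Below the level for comparison, Bmf, a BH3-only killer protein, had 8.15 FPKM in the MegaFasL liver and 0.961 FPKM in the untreated liver, on about 54 and 6 fragments (8.22-fold, 3.40 to 22.5). Bik, another BH3-only gene, had 5.25 FPKM in the MegaFasL liver and was listed at 0 in the untreated liver, at least 1.65-fold higher by a floor of 3 fragments. None of the 3 compared genes for other death receptors and their ligands was called, and Tnf was listed at 0 in both livers. Tnfrsf1b, a receptor for tumour necrosis factor, came nearest at 14.9 FPKM in the MegaFasL liver and 6.98 FPKM in the untreated liver (0.95). The lists for necroptosis and pyroptosis (4 compared) and for p53 targets (5 compared) also held 0 calls either way.

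**Figure D2:**
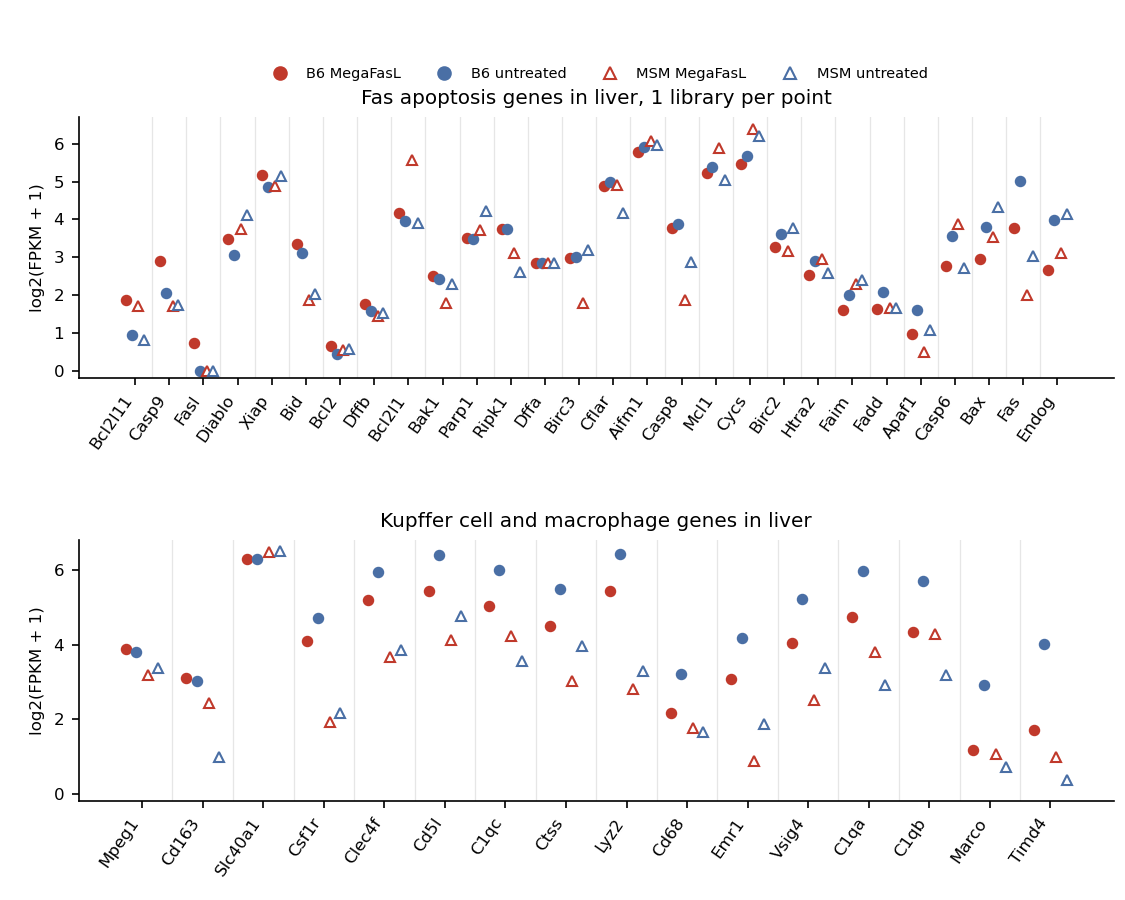
Log2(FPKM + 1) in each liver library, as deposited, for 28 Fas apoptosis genes (top) and the Kupffer cell and macrophage genes (bottom), ordered from the highest to the lowest B6 difference; red is MegaFasL, blue untreated, filled circles B6 and open triangles MSM. Fas lies near the right end of the top panel at 12.6 FPKM in the MegaFasL B6 liver and 31.2 FPKM in the untreated B6 liver, and in the bottom panel 13 of the 16 markers lie lower in the MegaFasL B6 liver by more than 0.5 log2 units.

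The clock list had the largest median difference of all lists. The circadian clock is a feedback loop in which BMAL1 (Arntl) with CLOCK switch on the Per and Cry genes, whose proteins repress them, and in which the REV-ERB repressors (Nr1d1, Nr1d2) hold Arntl down. Of 21 listed genes 18 were compared; 13 were called higher and 3 lower, and the median difference was 2.13. Period genes led the repressor limb: Per1 had 13.3 FPKM in the MegaFasL liver and 0.274 FPKM in the untreated liver, Per2 had 12.1 FPKM in the MegaFasL liver and 0.648 FPKM in the untreated liver, and Per3 had 20.5 FPKM in the MegaFasL liver and 0.529 FPKM in the untreated liver. All 3 period genes were near the limit of detection in the untreated liver, on about 2, 6 and 5 fragments, against 103, 123 and 214 in the MegaFasL liver. Cry2 was higher at 15.7 FPKM in the MegaFasL liver and 5.20 FPKM in the untreated liver, whereas Cry1 had 1.58 FPKM in the MegaFasL liver and 5.84 FPKM in the untreated liver, under the level for comparison. Gm129, an older symbol for the clock repressor Ciart, had 19.6 FPKM in the MegaFasL liver and was listed at 0 in the untreated liver, at least 4.93-fold higher.

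The activator limb ran the other way. Arntl had 1.15 FPKM in the MegaFasL liver and 9.22 FPKM in the untreated liver (fold 0.121, 0.0355 to 0.294), and Clock had 7.18 FPKM in the MegaFasL liver and 19.2 FPKM in the untreated liver (0.362, 0.282 to 0.462). Nr1d1 and Nr1d2, the repressors of Arntl, had 26.6 and 44.7 FPKM in the MegaFasL liver, against 7.78 and 12.9 FPKM in the untreated liver. Their counterpart at the same element, Rora, was not called, at -0.58. Of the output factors that bind the D-box, the activators Dbp, Tef and Hlf had 33.9, 74.1 and 16.2 FPKM in the MegaFasL liver, against 1.65, 7.86 and 4.23 FPKM in the untreated liver. Nfil3, the repressor at that box, had 3.10 FPKM in the MegaFasL liver and 14.6 FPKM in the untreated liver. Activators of the D-box were therefore higher and its repressor lower in the MegaFasL liver. Ccrn4l (Noct, a rhythmic protein of the deadenylase family) had 44.8 FPKM in the MegaFasL liver and 1.70 FPKM in the untreated liver (25.6-fold, 12.5 to 58.7). Usp2, a deubiquitinase under clock control, had 15.8 FPKM in the MegaFasL liver and 0.201 FPKM in the untreated liver, on about 54 fragments and 1 fragment. Bhlhe40 had 64.9 FPKM in the MegaFasL liver and 9.62 FPKM in the untreated liver.

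Since the time of day at which each mouse was killed is not stated, it cannot be told apart from the treatment in these differences. The MSM livers, with another pair of animals, had a clock median of 1.89, with 12 genes higher and 3 lower. The thymi of the same B6 mice had a clock median of 0.21, with 1 gene higher and 1 lower. These counts cover the genes compared in B6 liver, several of which were near the limit of detection in thymus. Per2 had 0.842 FPKM in the injected and 0.412 FPKM in the untreated thymus, and Hlf was listed at 0 in both. The gene higher was Nr1d1, at 4.03 against 0.359 FPKM, and the gene lower was Gm129, at 0 against 1.70 FPKM. Dbp was just under the call at 0.998, with 3.42 against 1.18 FPKM. Better measured, Tef had 6.16 against 3.59 FPKM (0.62), while Arntl had 14.9 against 15.5 FPKM and Nr1d2 8.28 against 7.78 FPKM.

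**Figure D3:**
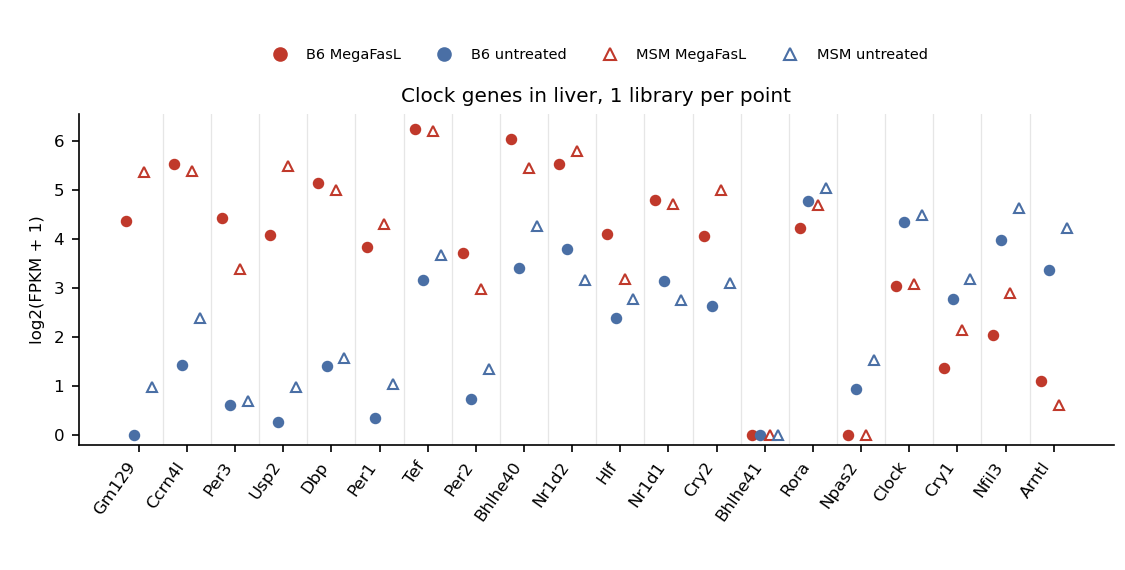
Log2(FPKM + 1) of 20 clock genes in each liver library, as deposited, ordered from the highest to the lowest B6 difference; red is MegaFasL, blue untreated, filled circles B6 and open triangles MSM, 1 library per point. From Gm129 (19.6 FPKM against 0 in B6) to Cry2 the MegaFasL livers lie above the untreated livers, and for Clock, Nfil3 and Arntl (1.15 against 9.22 FPKM in B6) they lie below.

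Genes that respond to glucocorticoids were higher as well. Of the 15 listed, 12 were compared; 7 were called higher and 0 lower, with a median of 1.39. Zbtb16, a zinc finger factor, had 15.7 FPKM in the MegaFasL liver and 2.11 FPKM in the untreated liver (7.24-fold, 4.09 to 14.9). Fkbp5, a co-chaperone of the glucocorticoid receptor, had 45.4 FPKM in the MegaFasL liver and 9.95 FPKM in the untreated liver (4.43-fold, 3.31 to 6.10). Tsc22d3, which encodes the glucocorticoid-induced leucine zipper GILZ, had 109 FPKM in the MegaFasL liver and 36.9 FPKM in the untreated liver (2.86-fold, 2.23 to 3.73). The metallothionein Mt2 had 148 FPKM in the MegaFasL liver and 22.4 FPKM in the untreated liver, and Errfi1, a feedback inhibitor of the EGF receptor, had 592 FPKM in the MegaFasL liver and 235 FPKM in the untreated liver. Per1 and Pck1 are the remaining calls and also stand in other lists. Not every member followed: Dusp1 had 11.8 FPKM in the MegaFasL liver and 11.2 FPKM in the untreated liver, Sgk1 had 9.87 FPKM in the MegaFasL liver and 15.1 FPKM in the untreated liver, and Nr3c1, the receptor itself, had a difference of -0.14.

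All 20 genes of cholesterol synthesis lay higher in the MegaFasL liver, the lowest at 0.11 (Sc5d); 10 were called higher and 0 lower, and the median was 1.04. In the mevalonate branch, Mvk had 16.8 FPKM in the MegaFasL liver and 6.27 FPKM in the untreated liver, Idi1 had 293 FPKM in the MegaFasL liver and 100 FPKM in the untreated liver, and Fdps had 354 FPKM in the MegaFasL liver and 139 FPKM in the untreated liver. These enzymes make and condense the isoprenoid units. In the sterol branch, Sqle, which oxidizes squalene, had 88.0 FPKM in the MegaFasL liver and 35.4 FPKM in the untreated liver. Nsdhl had 62.8 FPKM in the MegaFasL liver and 19.3 FPKM in the untreated liver, and Dhcr7, a late reductase of the pathway, had 44.4 FPKM in the MegaFasL liver and 13.3 FPKM in the untreated liver (3.25-fold, 2.00 to 5.33). Lss (1.17) and Sc4mol (1.12), also called, are sterol enzymes too, and Lss was at 1.00, just under the call, after a correction for transcript length and GC content. Hmgcs1, an early synthase of the pathway, had 408 FPKM in the MegaFasL liver and 230 FPKM in the untreated liver, a difference of 0.78 that was not called although its counting interval was narrow (1.61 to 1.85).

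Cholesterol genes are switched on by SREBP-2, which SCAP escorts out of the endoplasmic reticulum and which INSIG proteins hold back. Scap had 41.6 FPKM in the MegaFasL liver and 10.8 FPKM in the untreated liver, and Insig2 had 33.5 FPKM in the MegaFasL liver and 161 FPKM in the untreated liver (fold 0.202, 0.124 to 0.333). Insig1 was level, at 207 FPKM in the MegaFasL liver and 200 FPKM in the untreated liver. Srebf2, the gene for SREBP-2, had 12.3 FPKM in the MegaFasL liver and 5.29 FPKM in the untreated liver. Stard4, a carrier of cholesterol inside the cell, had 65.1 FPKM in the MegaFasL liver and 29.3 FPKM in the untreated liver (2.15-fold, 1.46 to 3.33). Of the 13 genes of cholesterol uptake and SREBP control that were compared, 5 were called higher and 1 lower, with a median of 0.60. After the correction for length and GC content Srebf2 and Abcg8, a sterol exporter, were no longer called (0.82 and 0.91).

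For fatty acid synthesis 17 of 20 genes were compared; 5 were called higher and 1 lower, with a median of 0.46. Fasn, fatty acid synthase on chromosome 11 from 120805846 to 120824547 (minus strand), had 156 FPKM in the MegaFasL liver and 44.9 FPKM in the untreated liver (3.37-fold, 3.07 to 3.69). Thrsp, a lipogenic protein that follows thyroid hormone and feeding, had 467 FPKM in the MegaFasL liver and 87.4 FPKM in the untreated liver, the largest difference of the list at 2.36. Acacb, the acetyl-CoA carboxylase of the mitochondrial surface, had 36.1 FPKM in the MegaFasL liver and 9.77 FPKM in the untreated liver, whereas the cytosolic form Acaca had 50.5 FPKM in the MegaFasL liver and 33.8 FPKM in the untreated liver (0.52). Elongases split: Elovl6 had 75.8 FPKM in the MegaFasL liver and 32.1 FPKM in the untreated liver, while Elovl5 had 164 FPKM in the MegaFasL liver and 419 FPKM in the untreated liver. Scd1, the stearoyl desaturase, was not called at -0.79, with 1139 FPKM in the MegaFasL liver and 1911 FPKM in the untreated liver. Srebf1, the lipogenic regulator, stood at 53.02 FPKM in the MegaFasL liver and 43.1 FPKM in the untreated liver.

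In the MSM livers the median difference was -0.40 over cholesterol synthesis, with 1 gene higher and 2 lower, and -0.60 over fatty acid synthesis, with 3 higher and 5 lower. Over cholesterol uptake and SREBP control it was 0.11, with 3 higher and 2 lower, and the difference between strains was not tested. Fasn went opposite ways, at 83.01 FPKM in the MegaFasL MSM liver and 218 FPKM in the untreated MSM liver.

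**Figure D4:**
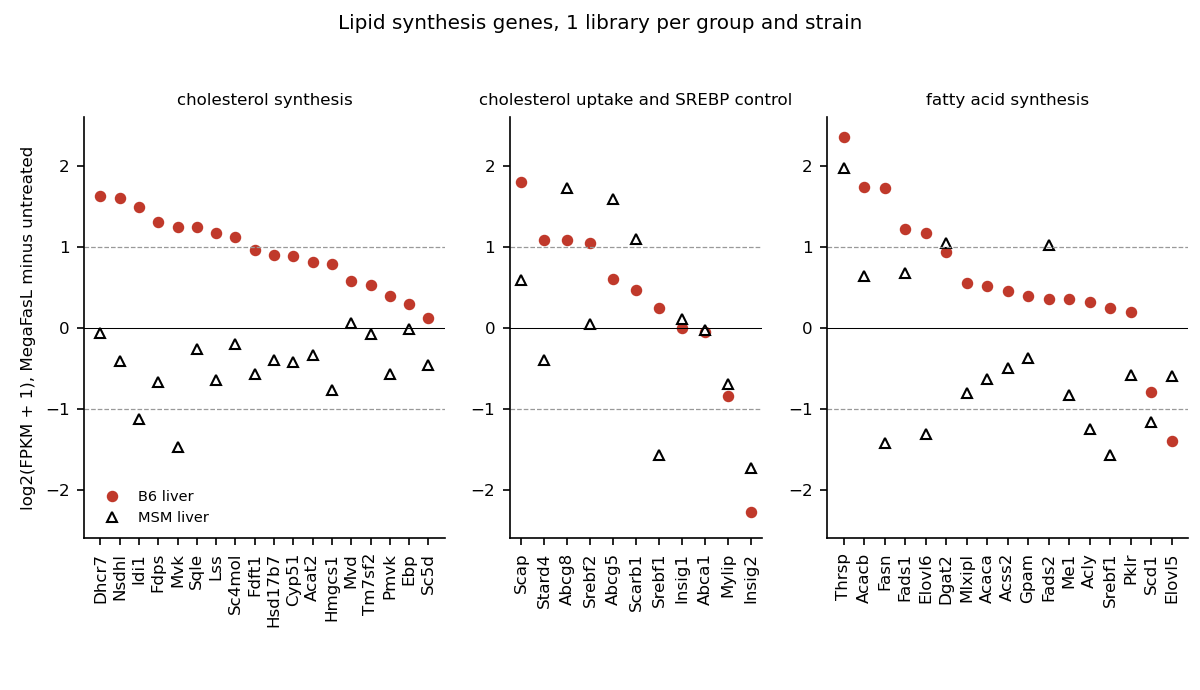
Log2(FPKM + 1) difference, MegaFasL minus untreated, of 18 genes of cholesterol synthesis (left), 11 of cholesterol uptake and SREBP control (middle) and 17 of fatty acid synthesis (right), in B6 liver (red circles) and MSM liver (open triangles), 1 library per group and strain; dashed lines mark 2-fold. All B6 circles on the left lie above 0, from 0.11 to 1.63, while the MSM median of that list is -0.40.

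Fat oxidation genes had more calls downward than upward. Of 22 compared genes of fatty acid oxidation and ketogenesis, 1 was called higher and 4 lower, with a median of -0.31. Pdk4, the kinase that shuts pyruvate out of the citric acid cycle in fasting, had 1.20 FPKM in the MegaFasL liver and 10.9 FPKM in the untreated liver (fold 0.107, 0.0282 to 0.309). Vnn1, Acot1 and Cyp4a14, which respond to the fatty acid receptor PPAR-alpha, had 12.3, 6.97 and 216 FPKM in the MegaFasL liver, against 42.3, 18.4 and 473 FPKM in the untreated liver. Ppara, the gene of that receptor, was the call upward, at 89.6 FPKM in the MegaFasL liver and 39.0 FPKM in the untreated liver, and it was under the call after the length and GC correction (0.97). Targets of PPAR-alpha and the receptor gene thus stood on opposite sides.

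In glucose metabolism 21 genes were compared; 6 were called higher and 1 lower, with a median of 0.63. Pck1, the control point of gluconeogenesis, had 1373 FPKM in the MegaFasL liver and 438 FPKM in the untreated liver (3.04-fold, 2.88 to 3.21). Gys2, liver glycogen synthase, had 134 FPKM in the MegaFasL liver and 48.8 FPKM in the untreated liver, opposite to the glycogen-targeting subunit Ppp1r3c above. Foxo1 and Foxo3, transcription factors that insulin keeps out of the nucleus, had 16.7 and 14.3 FPKM in the MegaFasL liver, against 6.48 and 2.94 FPKM in the untreated liver. With Lpin1 and Pfkfb1 (1.06) these make the 6 calls, of which Foxo1 went under the call with the length and GC correction (0.98).

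Among urea cycle and amino acid genes, 24 compared, 3 were called higher (12.5%) and 1 lower (4.17%), with a median of 0.26. The shares of all compared genes were 5.62% and 4.51%. Ass1, argininosuccinate synthase, had 304 FPKM in the MegaFasL liver and 53.5 FPKM in the untreated liver (5.51-fold, 4.59 to 6.70). The transaminases Got1 and Gpt2 had 263 and 186 FPKM in the MegaFasL liver, against 103 and 78.2 FPKM in the untreated liver; the length and GC correction took Gpt2 under the call (0.97). Ddc, the decarboxylase of aromatic amino acids, was lower, at 12.7 FPKM in the MegaFasL liver and 60.3 FPKM in the untreated liver (fold 0.204, 0.142 to 0.291). Of 14 compared polyamine and methyl donor genes, 2 were higher (14.3%) and 1 lower (7.14%). Srm, spermidine synthase, had 16.3 FPKM in the MegaFasL liver and 3.24 FPKM in the untreated liver on about 33 and 6 fragments, and Chka, choline kinase, had 5.94 FPKM in the MegaFasL liver and 23.1 FPKM in the untreated liver.

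The drug-metabolizing genes split, with 4 of 27 compared genes called higher, 3 lower and a median of 0.07. Por, the reductase that passes electrons to all microsomal cytochromes P450, had 224 FPKM in the MegaFasL liver and 41.3 FPKM in the untreated liver (5.25-fold, 3.88 to 7.33). Alas1, the first enzyme of haem synthesis, had 501 FPKM in the MegaFasL liver and 104 FPKM in the untreated liver (4.69-fold, 4.12 to 5.34). The coumarin hydroxylase Cyp2a5 had 922 FPKM in the MegaFasL liver and 185 FPKM in the untreated liver, and its near copy Cyp2a4 had 1106 FPKM in the MegaFasL liver and 288 FPKM in the untreated liver. The reductase, the haem enzyme and these cytochromes were thus each several-fold higher. Cyp3a11, the main P450 of drug breakdown in mouse liver, was lower at 654 FPKM in the MegaFasL liver and 2317 FPKM in the untreated liver (fold 0.273, 0.261 to 0.286), and Cyp2b10 and Cyp26a1 were lower by 1.75 and 1.35. Cyp3a16, a paralog of Cyp3a11, was among the largest differences upward, with 192 FPKM in the MegaFasL liver and 28.7 FPKM in the untreated liver. Cyp2a4 and Cyp2a5 are near-identical copies, and the Cyp3a genes are related copies. The authors' program could have divided shared reads between such copies, so their separate levels are uncertain.

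Of 18 heat shock genes compared, 3 were higher (16.7%, against 5.62% of all compared genes) and 1 lower, with a median of 0.43. Dnajb1, Hsph1 and Bag3, partners of the chaperone HSP70, had 21.6, 30.2 and 9.99 FPKM in the MegaFasL liver, against 5.90, 9.29 and 3.05 FPKM in the untreated liver, while Hspb1, a small heat shock protein, rested on about 5 and 11 fragments. In the integrated stress response, Herpud1, a factor of protein quality control in the endoplasmic reticulum, was the call among 7 genes (1.10, and 0.99 after the length and GC correction), and Atf4, the central transcription factor, was at -0.59. None of 5 immediate-early genes was called, with a median of 0.21 against 1.47 in MSM liver, and the AP-1 genes Jund and Junb differed by -0.56 and 0.21. Of 7 genes of the NF-kappaB response, Tnfaip2 was lower (14.3% of the list, against 4.51% of all compared genes). It had 2.31 FPKM in the MegaFasL liver and 10.1 FPKM in the untreated liver. Nfkbia, the feedback inhibitor, had 19.0 FPKM in the MegaFasL liver and 15.03 FPKM in the untreated liver. Chemokine genes were mostly under the level for comparison, with 2 of 20 compared and 0 called.

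The acute-phase list held 25 compared genes with a median of 0.03, and its 3 calls, all higher (12.0% of the list, against 5.62%), were Il6ra and the metallothioneins Mt1 and Mt2. Il6ra, the interleukin-6 receptor, had 29.7 FPKM in the MegaFasL liver and 6.59 FPKM in the untreated liver (4.37-fold, 3.33 to 5.86), and Mt1 had 411 FPKM in the MegaFasL liver and 87.8 FPKM in the untreated liver. The serum amyloid gene Saa1 had 21.97 FPKM in the MegaFasL liver and 40.6 FPKM in the untreated liver, and the fibrinogen genes Fga and Fgb had differences of -0.72 and -0.60. Receptor and metallothioneins were thus called, while the compared genes for secreted proteins of the list were not. Under the level for comparison, Orm3 had 8.76 FPKM in the MegaFasL liver and was listed at 0 in the untreated liver. Lcn2, also under it, had 7.69 FPKM in the MegaFasL liver and 1.87 FPKM in the untreated liver. Of 23 interferon-response genes, 0 were higher and 3 lower (Ifi27l2a, Rsad2 and Ifit3), with a median of -0.38. That is 13.0% lower, against 4.51% of all compared genes. Ifit3 was at -1.03, and at -0.99 after the length and GC correction. With an added value of 5, both Ifit3 and Rsad2 were under the call. Rsad2, the antiviral enzyme viperin, had 3.10 FPKM in the MegaFasL liver and 7.64 FPKM in the untreated liver. Among 16 antigen presentation genes H2-Aa, a class II gene, was the call (6.25% lower, against 4.51% of all compared genes). It had 27.6 FPKM in the MegaFasL liver and 59.0 FPKM in the untreated liver.

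Markers of Kupffer cells, the resident macrophages of the liver, stood lower in the MegaFasL liver. Of 16 markers 15 were compared; 0 were called higher and 8 lower, the median was -1.03, and the summed level was 365 FPKM in the MegaFasL liver and 654 FPKM in the untreated liver. Timd4, a receptor for dying cells that marks resident Kupffer cells, had 2.25 FPKM in the MegaFasL liver and 15.1 FPKM in the untreated liver, on about 8 and 49 fragments (fold 0.145, 0.0586 to 0.305). The complement genes C1qa and C1qb had 25.9 and 19.4 FPKM in the MegaFasL liver, against 61.6 and 51.0 FPKM in the untreated liver, and Vsig4, a complement receptor, had 15.4 FPKM in the MegaFasL liver and 36.1 FPKM in the untreated liver. Emr1 (the F4/80 antigen), Cd68, Lyz2 and Ctss were the other calls, at -1.13, -1.10, -1.03 and -1.03, and Ctss was under the call after the length and GC correction (-0.92). Lyz2 and Ctss were under it without centring, and with an added value of 5 all of Emr1, Cd68, Lyz2 and Ctss were under it, at -0.85, -0.68, -0.97 and -0.91, which left 4 of the 8 calls. C1qc and Cd5l sat just short of the threshold, at -0.998 and -0.995. The pattern did not cover every marker: Clec4f, a lectin of Kupffer cells, was at -0.78, and Slc40a1, Cd163 and Mpeg1 were at -0.05, 0.06 and 0.06. In whole tissue, fewer cells of a type and less RNA per cell cannot be told apart. In the MSM livers the same list had a median of -0.23, with 2 genes higher and 1 lower, and C1qb went the other way at 1.07.

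**Figure D5:**
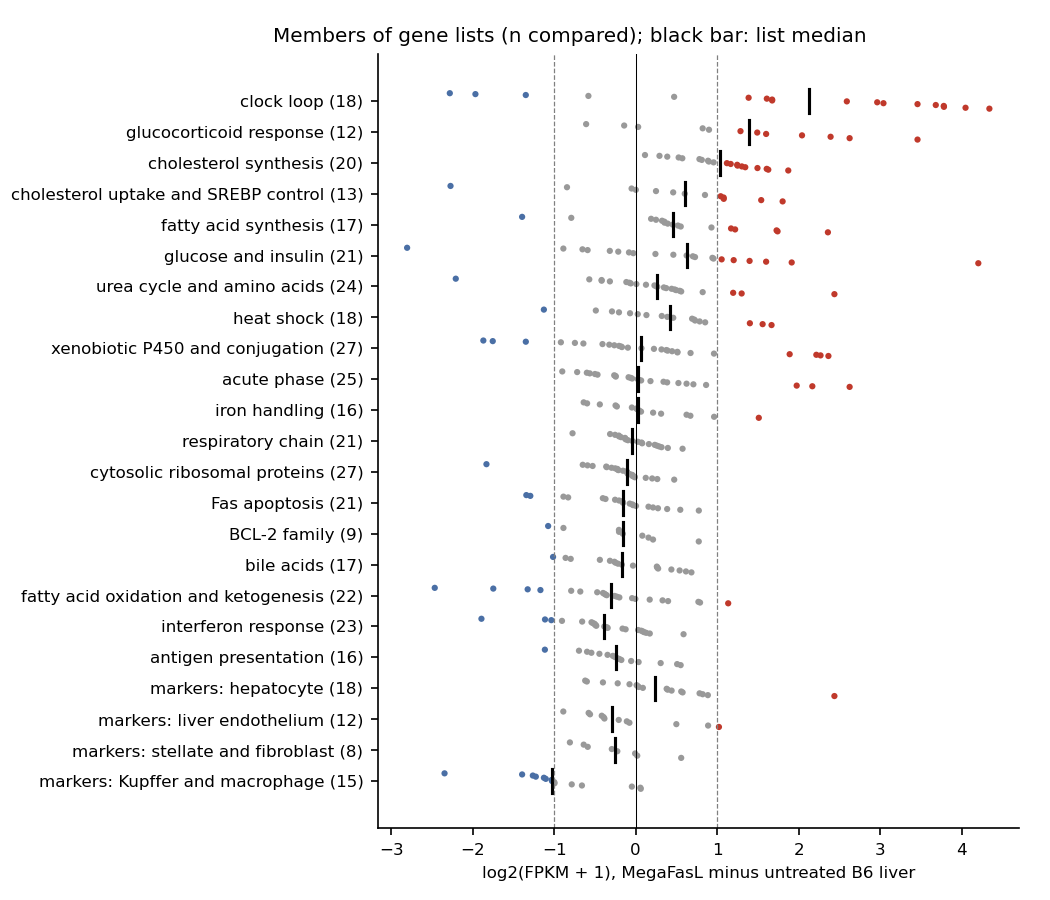
Log2(FPKM + 1) difference, MegaFasL minus untreated B6 liver, of each compared member of 23 gene lists, with the number compared in brackets; red points were called higher, blue lower, and black bars are list medians. The clock, glucocorticoid and cholesterol synthesis medians lie beyond 1 (2.13, 1.39 and 1.04), the Kupffer cell median at -1.03, and the Fas apoptosis median at -0.15.

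Markers of other cell types were compared in the same way. Of 12 endothelial genes, Eng was the call (1.02, and 0.79 after the length and GC correction) and the median was -0.30; Kdr and Stab2 had 17.7 and 17.5 FPKM in the MegaFasL liver, against 18.6 and 18.0 FPKM in the untreated liver. Of 8 stellate cell and fibroblast genes 0 were called, with a median of -0.26. Neutrophil and monocyte markers were scarce, with 2 of 13 matched genes compared and 0 called; Mpo, Ltf, Camp and Ngp were listed at 0 in both livers. Markers of lymphocytes other than T cells were under the level for comparison, with 0 compared: the NK cell list summed to 4.25 FPKM in the MegaFasL liver and 13.5 FPKM in the untreated liver, and the B cell list to 4.09 FPKM in the MegaFasL liver and 8.44 FPKM in the untreated liver. Thymocyte markers other than Cd1d1 were low in both libraries and summed to less in the MegaFasL liver, although Ptcra had a difference of 0.59. These 19 markers summed to 11.4 FPKM in the MegaFasL liver, with 6 at 0, and to 52.5 FPKM in the untreated liver, with 2 at 0. With Cd1d1, which had a difference of 0.23, all 20 summed to 175 FPKM in the MegaFasL liver and 187 FPKM in the untreated liver. The median of the 19 was 0.392% of the level in the thymus of the same mouse in the MegaFasL liver and 1.67% in the untreated liver. Rag1, the recombinase of developing lymphocytes, was among the largest differences downward, at 0.601 FPKM in the MegaFasL liver and 9.88 FPKM in the untreated liver. Its difference of -2.79 went to -0.13 when the matching share of thymus RNA was subtracted. Rag1 is itself among the 19 markers whose median set that share. Its shift was therefore largely fixed in advance, and the source of its RNA was not tested. That subtraction left the clock, cholesterol and Kupffer genes named above within 0.1 log2 units of their values.

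The groups that follow had at most 2 calls each. The respiratory chain had 0 of 21, with a median of -0.04, and cytosolic ribosomal proteins had 0 higher and 1 lower of 27 (Rpl26, -1.83), with a median of -0.11. Bile acid genes had 0 higher and 1 lower of 17, which is 5.88% against 4.51% of all compared genes (Hsd3b7, -1.01, and -0.94 after the length and GC correction), and the transporters Slc10a1 and Abcb11, which carry bile acids into and out of the hepatocyte, were at 0.54 and -0.80. Iron genes had 1 higher of 16 (6.25%, against 5.62% of all compared genes), the metal transporter Slc39a14, at 86.0 FPKM in the MegaFasL liver and 28.6 FPKM in the untreated liver, while Hamp, the iron hormone hepcidin, had 2647 FPKM in the MegaFasL liver and 1664 FPKM in the untreated liver (0.62). Growth and regeneration genes had 2 higher of 14 (14.3%), the receptors Lifr and Egfr, at 1.03 and 1.16, and Ccnd1, cyclin D1, had 24.9 FPKM in the MegaFasL liver and 33.2 FPKM in the untreated liver. Of 26 cell cycle genes 4 were compared and 0 called. Over all 42 lists, 482 of 739 distinct genes were compared, 66 were called higher and 37 lower.

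Genes listed at 0 in either library were mostly short. In the MegaFasL liver, Hist1h2bm, Hist1h2ak, Hist1h4k, Hist1h2bf and Hist1h2bn were listed at 0, against 20.4, 19.2, 16.3, 13.6 and 13.6 FPKM in the untreated liver. These are replication-dependent histone genes, whose transcripts lack a poly(A) tail and have near-identical copies. Hist1h4k and Hist1h2bn rested on about 3 and 4 fragments in the untreated liver, and the counting intervals of their folds included 1. In the other direction H2-T22, a class I gene with close paralogs, had 23.8 FPKM in the MegaFasL liver and was listed at 0 in the untreated liver, at least 18.7-fold higher. Rpl30 and Ugt1a10 had 18.0 and 11.1 FPKM in the MegaFasL liver and were listed at 0 in the untreated liver, at least 3.50-fold and 3.03-fold higher. The snoRNA host Snhg9 and the globin gene Hbb-b2, also listed at 0 in the untreated liver, had 25.8 and 11.7 FPKM in the MegaFasL liver; Snhg9 rested on about 2 fragments.

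The same contrast was available in the livers of the MSM mice and in the thymi of the same B6 mice, each again with 1 library per group. In MSM liver 6891 genes were compared, of which 6.09% were called higher and 5.08% lower (11.2% in all). In B6 thymus 7040 genes were compared, of which 1.14% were called higher and 1.21% lower (2.34% in all). Of 343 genes called higher in B6 liver and compared in MSM liver, 112 were called higher there (32.7%) and 14 lower; these 112 were 31.6% of the 354 MSM calls compared in B6. Of 238 genes called lower in B6 liver and compared in MSM liver, 61 were called lower there (25.6%, or 21.6% of 283 MSM calls) and 19 higher. In the thymi of the same B6 mice, 14 of 190 genes called higher in liver were also higher (7.37%, or 31.8% of 44 thymus calls) and 7 of 209 called lower were also lower (3.35%, or 13.2% of 53). Lpin1, Tubb2a and Clpx differed alike in both strains, with 4.54, -3.86 and -2.46 in MSM liver, while Tsku and Ppp1r3c were smaller there, at 0.97 and -0.73.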

How the data were processed

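Polyadenylated RNA of 8 libraries (liver and thymus of 4 mice, 1 library per group) was sequenced. Reads were aligned with TopHat to mm10 and gene levels computed with Cuffdiff 2.2.1, per the submitters' processing notes; their gene annotation is not stated in those notes. The authors deposited FPKM, in 1 table for the injected and 1 for the untreated mice, each normalized separately. FPKM depends on a library's whole content, and Rn45s, a ribosomal RNA precursor, took 2.30% of the sum in the MegaFasL B6 liver and 5.37% in the untreated one.

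From these values, log2(FPKM + 1) differences were computed with Python 3.11.15, numpy 2.4.6 and pandas 2.3.3, after centring by the median ratio, and tested on simulated data with known changes. A call was a difference of at least 1, with no p-value. Depth was estimated from single-transcript genes of at least 1500 nt (length less 200 nt): 70.9% of low values in the MegaFasL liver and 69.7% in the untreated liver were whole fragments within 0.1, against 20% by chance. Fragments of a gene used its median coding transcript in GENCODE M21 (mm10, counted from 1), so they are approximate for genes with several transcripts. Intervals are exact binomial (Clopper-Pearson) with scipy 1.17.1 and floors 3 fragments.

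Genes were named if among the 15 largest differences each way (at least 0.5 FPKM in each liver, no predicted or small RNA symbols). The 5 highest each way listed at 0 in the other liver and the 6 largest of each list were also named. So were genes in the death, clock, lipid and marker lists. Others (Errfi1, Sgk1, Nr3c1, Pfkfb1, Klf10, Klf13, Tnf, Orm3, Lcn2, further histone genes and the sex-biased genes) were named after their values were seen. Gene lists and comparisons were chosen with earlier results of these data known. A few list members are counted but not reported here by name. MSM reads, aligned to a B6-based reference, can be lost at divergent genes.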

Additional observations from a re-analysis of the deposited data

Results flagged for a closer look

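Among genes averaging 5 FPKM or more in the livers of both strains, 6 of those named were called in B6 liver and differed at least 2-fold the opposite way in MSM liver, each from 1 library per group; 33 did so in all. Under that level in MSM liver, the histone Hist1h4k had -4.13 in B6 and 2.72 in MSM, where it was at 5.67 FPKM in the MegaFasL liver and listed at 0 in the untreated liver. In B6 it rested on 0 and about 3 fragments, and the counting interval of its fold (0 to 2.12) included 1. The difference between strains was not tested for any of them, and strain cannot be told apart from sex, which is not given. Cyp3a16 was higher in the MegaFasL than in the untreated liver of B6 (2.66) and lower in that of MSM (-3.32), which is 5.97 log2 units between the strains. The lipid genes Fasn, Mvk, Idi1 and Elovl6 were likewise higher in B6 and lower in MSM, by 3.15, 2.72, 2.62 and 2.49 between the strains. C1qb, a Kupffer cell marker, was lower in B6 (-1.39) and higher in MSM (1.07), a difference of -2.47.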

How the results depend on the processing

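No gene named by the rule and called in B6 liver changed direction under any alternative run. Outside the rule, the histone Hist1h1a was at -1.48, and at 0.70 after thymus RNA subtraction. Srebf1, not called at 0.25, was at -0.23 after the length and GC correction. Of 395 genes higher and 317 lower, an added value of 0.1 gave 481 and 380, and an added value of 5 gave 199 and 155, with 354 of the 712 calls kept. The added value of 5 took 23 list genes under the call, among them Cry2, Endog, Bad, Mvk, Lss, Srebf2, Stard4, Acot1, Foxo1, Pfkfb1, Bag3, Rsad2 and Ifit3. A minimum of 1 FPKM gave 721 and 706, and no minimum gave 885 and 892, with 167 list genes called against 103. No centring, a common sum, the upper quartile and thymus RNA subtraction kept both counts within 1.5 times. A correction for transcript length and GC content, chosen after seeing the data, gave 319 and 296 and kept 556 of the calls; the percentage called lower had been 8.08% in the shortest of 5 equal bins of genes and 1.40% in the longest, and the percentage called higher 1.62% in the bin lowest in GC and 9.10% in the highest. Requiring the deposited Cuffdiff intervals of the libraries not to overlap left 0 and 0, since 1 compared gene had a lower bound above 0. Calls shared with MSM liver numbered 173, or 103 with an added value of 5 and 284 with a minimum of 1 FPKM, and with B6 thymus 21, or 11 and 60.

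No paired analysis was possible because each group has 1 library, and leaving out a replicate was not run for the same reason. A promoter motif search was not run. Depth limits the low genes: 1 fragment on 2 kb stood for 0.309 FPKM in the MegaFasL liver and 0.341 FPKM in the untreated liver.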

Other observations

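Replication-dependent histone genes, a family picked out after its values were seen, stood lower in the MegaFasL liver. Of 24 compared, 0 were called higher and 19 lower, with a median of -2.02, and their sum was 389 FPKM in the MegaFasL liver, with 8 genes at 0, and 834 FPKM in the untreated liver, with 0 at 0. Several reached the mean of 5 FPKM only through the untreated liver. Hist1h2bg, for example, was listed at 0 in the MegaFasL liver and had 10.3 FPKM in the untreated liver. Hist1h3i had 1.98 FPKM in the MegaFasL liver and 8.68 FPKM in the untreated liver. The counts, the median and the zeros are therefore shaped by that filter. In the MSM livers the same genes summed to 327 FPKM in the MegaFasL liver and 399 FPKM in the untreated liver. The B6 thymi, where these genes are abundant, held 12025 FPKM in the injected mouse and 14721 FPKM in the untreated mouse. After subtraction of the thymus RNA share, 16 of the 19 were still called lower; Hist1h1c was at -0.89 and Hist1h3i at -0.60, against -1.10 and -1.73 before it, and Hist1h1a turned to 0.70 from -1.48. Their RNA has no poly(A) tail, and these libraries were made from polyadenylated RNA.

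Genes known for higher levels in female than in male mouse liver, again listed after the values were seen, tended to be higher. Of 17 compared, 8 were called higher and 0 lower, with a median of 0.96. Over all compared genes 5.62% were called higher and 4.51% lower. Cux2, a homeobox factor that represses male-biased genes, had 17.4 FPKM in the MegaFasL liver and 1.36 FPKM in the untreated liver. Cyp17a1, a steroid hydroxylase, had 194 FPKM in the MegaFasL liver and 76.5 FPKM in the untreated liver. In the MSM livers 3 of these genes were higher and 5 lower. Of 11 compared male-biased genes 3 were higher and 0 lower, with a median of 0.51. Cyp4a12a, a male-biased P450, was listed at 0 in both B6 livers. In the MSM livers it had 16.9 FPKM with MegaFasL and 23.4 FPKM untreated. A1bg, of the female-biased list, had 202 and 226 FPKM in the MegaFasL and untreated B6 livers, against 1.18 and 0.713 FPKM in the MSM livers. Others went the other way: Mup11 (male-biased) was higher in B6 livers and Sult3a1 (female-biased) in MSM livers. The sex of the mice is not given, so sex and strain cannot be told apart here.

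Among families grouped by symbol after the values were seen, small nucleolar RNAs had 9 of 30 called higher and 7 lower, in both directions, on transcripts shorter than the fragments usually sequenced. The Kruppel-like factors Klf13 and Klf10 had 22.7 and 21.7 FPKM in the MegaFasL liver, against 3.73 and 6.64 FPKM in the untreated liver.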
